A study of Mus musculus with 6 samples.

Results

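Emx1, Emx2, Otx1, Otx2, Six3, Lhx2, Hesx1 and Fezf2 encode transcription factors of the embryonic forebrain, and the accessible DNA around these 8 genes was examined by ATAC-seq in neural stem/progenitor cells (NSPCs) with and without an enhancer cluster of Sox2. An interval of a peak list was assigned to a member gene when that gene had the nearest protein-coding transcription start site (TSS) to the interval's strongest summit and the TSS was at most 50 kb away. By this rule 65 intervals belonged to the member genes, 33 of the 82885 in the parent list and 32 of the 107480 in the deletion list. The NSPCs had been differentiated from F1 ESCs of a 129S1/Cast F1 hybrid and were grown with EGF and bFGF. Both groups carried the Sox2-mCherry (129) allele, a fluorescent tag on the 129 copy of Sox2. The parent group (3 cultures, treatment "no deletion") had no other modification. The deletion group (3 cultures, here ΔSRR2–18) was homozygous for a deletion of SRR2–18, a cluster of Sox2 regulatory regions downstream of the gene. Each group was 1 clone, so a difference between the groups cannot be told apart from a difference between 2 clones. The deposited peak lists pool the 3 cultures of a group, and values below therefore have no spread between cultures and differences were not tested.

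These genes act along the front of the neural tube. Hesx1 and Six3 are homeodomain repressors of the prospective forebrain and eye field, and Six3 is known for holding back posteriorizing Wnt signals. Otx1 and Otx2 are bicoid-class homeodomain factors of the forebrain and midbrain, and Otx2 sets the anterior side of the midbrain–hindbrain boundary. Emx1, Emx2 and the LIM homeodomain factor Lhx2 pattern the dorsal telencephalon, and the zinc-finger factor Fezf2 acts in the early forebrain and later in deep-layer cortical neurons. Accessible DNA near such genes includes promoters and enhancers, but accessibility does not measure transcription.

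The sequences that carry the main comparisons are given first, each as the 201 bases centred on the strongest summit, in mm10 (GRCm38) coordinates on the forward strand. They were read from the RefSeq copy of this build. Capitals mark exact matches to 5 motifs searched on both strands, namely GGATTA (OTX), TAATTA (LIM and EMX homeodomains), CCATTGT or CCTTTGT (SOX), TGACTCA or TGAGTCA (AP-1) and TGATTNAT (HOX-PBX). A window without capitals held none of these words. The first pair of windows comes from the distal intervals whose reads differed most between the groups.
Otx2, 36.2 kb upstream, in both lists (chr14:48709894-48710094): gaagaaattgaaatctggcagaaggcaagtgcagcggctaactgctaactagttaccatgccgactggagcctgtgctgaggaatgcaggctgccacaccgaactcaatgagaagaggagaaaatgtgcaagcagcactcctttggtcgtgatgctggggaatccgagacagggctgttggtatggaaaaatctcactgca
Lhx2, 44.6 kb downstream, in both lists (chr2:38395306-38395506): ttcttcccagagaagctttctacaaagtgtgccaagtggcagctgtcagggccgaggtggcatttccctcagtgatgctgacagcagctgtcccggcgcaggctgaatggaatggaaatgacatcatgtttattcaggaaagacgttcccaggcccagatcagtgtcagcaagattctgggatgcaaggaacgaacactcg
The next window is a distal Six3 interval of similar fold enrichment in both groups, shown as a contrast.
Six3, 24.9 kb downstream, in both lists (chr17:85645797-85645997): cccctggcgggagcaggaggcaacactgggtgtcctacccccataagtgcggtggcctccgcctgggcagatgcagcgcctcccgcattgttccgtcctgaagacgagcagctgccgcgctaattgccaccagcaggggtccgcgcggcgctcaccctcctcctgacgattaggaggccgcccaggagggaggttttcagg
The parent list alone held the next 3, shown as examples with a SOX word, a TAATTA word or both.
Otx1, 16.0 kb upstream, parent-only (chr11:22017541-22017741): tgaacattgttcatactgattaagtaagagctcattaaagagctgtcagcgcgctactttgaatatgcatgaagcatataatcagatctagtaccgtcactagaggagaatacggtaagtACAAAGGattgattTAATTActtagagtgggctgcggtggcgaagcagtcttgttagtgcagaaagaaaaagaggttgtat
Emx2, 34.5 kb upstream, parent-only (chr19:59423770-59423970): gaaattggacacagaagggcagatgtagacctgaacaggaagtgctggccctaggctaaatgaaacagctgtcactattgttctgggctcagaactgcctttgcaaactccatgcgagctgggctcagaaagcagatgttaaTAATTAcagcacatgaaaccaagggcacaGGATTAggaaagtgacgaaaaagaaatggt
Fezf2, 7.64 kb downstream, parent-only (chr14:12338101-12338301): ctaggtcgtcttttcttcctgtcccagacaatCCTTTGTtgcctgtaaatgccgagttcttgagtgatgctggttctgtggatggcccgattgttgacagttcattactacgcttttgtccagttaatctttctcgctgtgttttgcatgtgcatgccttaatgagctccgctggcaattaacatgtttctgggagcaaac
The deletion list alone held the last pair, chosen because they are the member intervals with an AP-1 word.
Otx1, 49.8 kb downstream, deletion-only (chr11:21951763-21951963): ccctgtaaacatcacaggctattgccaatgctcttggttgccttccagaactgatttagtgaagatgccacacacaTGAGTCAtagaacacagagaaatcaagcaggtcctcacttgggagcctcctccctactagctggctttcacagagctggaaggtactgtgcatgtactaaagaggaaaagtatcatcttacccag
Otx1, 27.8 kb downstream, deletion-only (chr11:21973732-21973932): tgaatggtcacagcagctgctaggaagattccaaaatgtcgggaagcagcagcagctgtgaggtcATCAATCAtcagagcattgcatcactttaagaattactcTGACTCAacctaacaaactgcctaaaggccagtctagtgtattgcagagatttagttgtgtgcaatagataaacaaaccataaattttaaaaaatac

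Reads below are the height of the read pileup at a summit, worked out from 2 values of the authors' peak caller, its −log10 p and its fold enrichment. Scaled reads are this height divided by the lowest background of the same list, 38.8 reads in the parent list and 19.7 in the ΔSRR2–18 list, so a scaled value of 1 is the genome-wide mean. The parent background was 1.98 times the higher, although the labels give a depth of 50 to 60 M reads for every culture. The tissue label was checked by accessible promoters, with an interval whose summit lay within 1 kb of a TSS. All 9 neural stem and progenitor markers (Sox2, Sox1, Nes and others) had one in both lists, and none of the 5 pluripotency markers (Nanog, Zfp42, Dppa3, Pou5f1, Tdgf1) had one in either. Of 5 mesoderm and endoderm genes, 3 had one in the parent list, without Mesp1 and Sox17, against 5 in the ΔSRR2–18 list. Of 5 surface epithelium genes, 1 had one in the parent list (Cdh1) against 3 in the ΔSRR2–18 list, where Krt8 and Krt18 lacked one. The part of other cell types in the results below was not tested.

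Of the 8 genes, 7 had an accessible interval in each list, and Hesx1 had none in either. Over all protein-coding symbols, 80.5% had an interval in at least 1 list. In the parent list 17 of 33 member intervals (51.5%, 95% Wilson interval 35.2–67.5, counting error only) had no overlapping ΔSRR2–18 interval, beside 52.3% of all parent intervals. In the ΔSRR2–18 list 17 of 32 (53.1%, 36.4–69.1) had no overlapping parent interval, beside 63.1% of all. Among the intervals of either list within 50 kb of any protein-coding TSS these shares were 45.0% and 53.0%. The members' shares were thus near the background. Of the 17 parent-only intervals, 14 were also absent from the more permissive (optimal) ΔSRR2–18 list, and 15 of the 17 deletion-only intervals were absent from the optimal parent list.

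**Figure D1:**
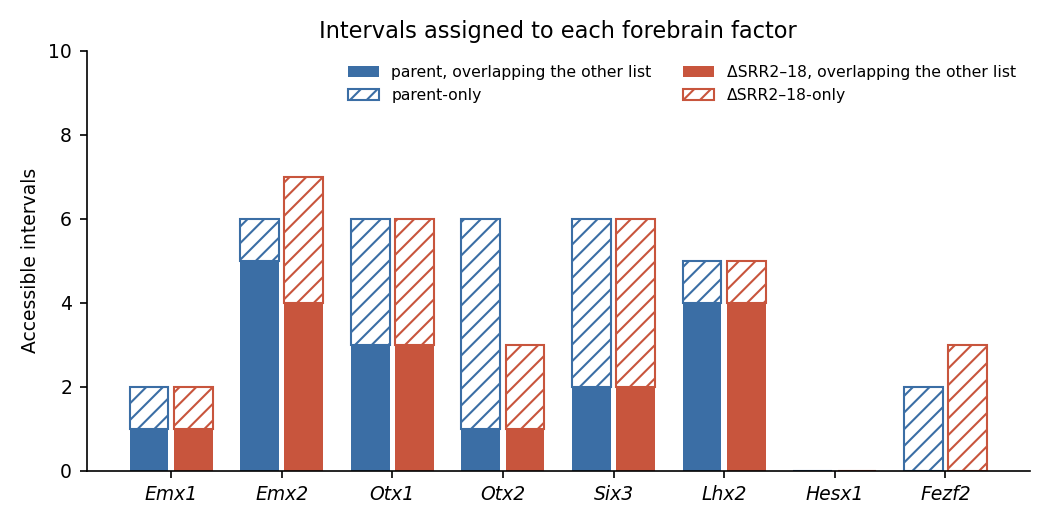
Number of accessible intervals assigned to each gene (vertical axis) in the parent (blue) and ΔSRR2–18 (red) lists, with solid bars for intervals that overlap the other list and hatched bars for those that do not. Otx2 had 6 parent and 3 ΔSRR2–18 intervals, Emx2 had 6 and 7, and Hesx1 had none.

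Among the genes, Otx2 had 5 parent-only and 2 deletion-only intervals, Emx2 had 1 and 3, and Fezf2 had 2 and 3. These directions turned in some settings of the processing. Within 10 kb of the TSS, which leaves out distal intervals, Otx2 had 1 parent-only and 2 deletion-only intervals. In the optimal lists it had 5 and 3, and with the ΔSRR2–18 list shortened to the parent's length 5 and 2. With that list shortened by fold enrichment Emx2 had 2 and 1 and Fezf2 had 2 and 0. Shortened by −log10 p they had 1 and 2, and 2 and 2. Otx1 had 3 of each, Six3 had 4 of each, and Emx1 and Lhx2 had 1 of each. With counts this small and 1 pooled list per group, an order of the genes cannot be supported.

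Intervals present in both lists were compared by height. The 16 parent intervals with an overlapping ΔSRR2–18 interval, each matched to the one of longest overlap, form 16 pairs, and the pairs of Emx1, Emx2, Otx1, Otx2, Six3 and Lhx2 number 1, 5, 3, 1, 2 and 4. The median log2 difference in scaled reads (ΔSRR2–18 over parent) was −0.58, with quartiles of −1.75 and 0.04, whereas over all 39500 pairs the median was −0.23 with quartiles of −0.71 and 0.48. In 7 of the 16 pairs the scaled reads were at least 2-fold lower in ΔSRR2–18 NSPCs (16.0% of all pairs), and in 0 of 16 they were at least 2-fold higher (16.1% of all pairs). The difference was below 0 in 11 of 16 pairs (68.8%), beside 60.8% of all pairs. All member pairs lie within 50 kb of a TSS, and the 30232 pairs within 50 kb of any protein-coding TSS had a median of −0.30. Of these 30232 pairs, 65.5% were below 0, 15.1% were at least 2-fold lower and 12.8% at least 2-fold higher. The 7 lower member pairs belong to Lhx2 (4), Emx2, Otx1 and Otx2, so they do not come from 7 independent loci.

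The height of an interval in the parent list bears on these values. For each member pair the median log2 difference was taken over all pairs within 1.5 times its parent height, and these medians ran from −0.65 to 0.31 with a middle value of −0.53, close to the members' −0.58. Relative to them 12 of 16 member pairs were lower, with a median of −0.28. The 7 weaker pairs began at parent scaled reads of 39.2 to 131, and high parent intervals were more often weaker over the whole genome. Among all pairs within 1.5 times the parent height of each of these 7, the share at least 2-fold lower ran from 19.2% (at the second Lhx2 promoter) to 31.2% (at Emx2, 1.11 kb downstream of the TSS). Measured by the authors' fold enrichment over local background in place of scaled reads, 2 of the 16 pairs were at least 2-fold lower (7.45% of all pairs) and 1 was at least 2-fold higher (10.7%).

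**Figure D2:**
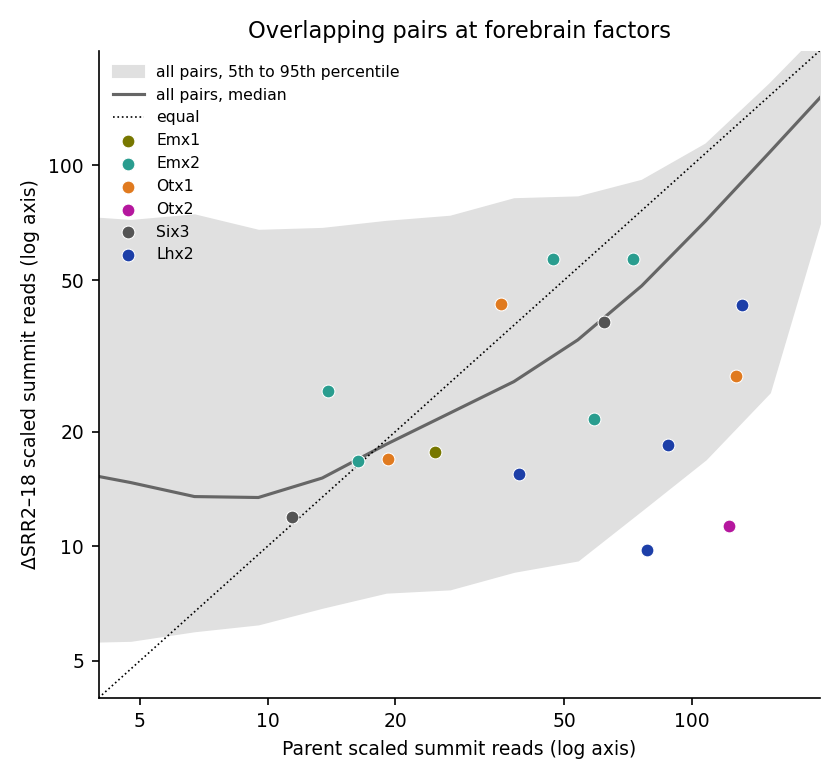
Scaled summit reads of the 16 overlapping pairs in parent (horizontal, log axis) and ΔSRR2–18 NSPCs (vertical, log axis), coloured by gene, with the median (grey line) and the 5th to 95th percentile (grey band) of all 39500 pairs at each parent height and a dotted line of equality. The Otx2 pair at 122 and 11.3 and the Lhx2 pair at 78.2 and 9.77 lie below the band.

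Otx2 (ENSMUSG00000021848.16, chr14:48657677-48673819, reverse strand) had its strongest interval at a far lower height in the ΔSRR2–18 list. This interval, at chr14:48709424-48710282 in an intron of the non-coding Otx2os1 and 36.2 kb upstream of the first Otx2 TSS, had 4758 reads at its summit in the parent list and 223 in the ΔSRR2–18 list, or 122 and 11.3 scaled reads. The difference was 10.8-fold (log2 −3.43), a value reached or passed by 0.552% of all pairs and by 2.18% of the 7816 pairs of like parent height. By −log10 p the interval ranked in the top 3.60% of the parent list and the top 62.2% of the ΔSRR2–18 list. Its fold enrichment was 20.4 and 10.8, a log2 difference of −0.91. The local background behind it was 5.97 times the genome-wide mean in the parent list and 1.0 times in the ΔSRR2–18 list.

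The other Otx2 intervals did not overlap between the lists. The strongest parent-only one lay 37.6 kb downstream at chr14:48624574-48625891 with 47.5 scaled reads, and the remaining ones 37.1 kb upstream and 20.7 and 46.3 kb downstream had 21.7, 14.6 and 7.49. Near the promoters, each list marked a different one of the 5 annotated start sites. The parent list had an interval with its summit 140 bp upstream of the TSS at 48662872 (12.2 scaled reads), and the ΔSRR2–18 list had one 64 bp downstream of the TSS at 48665106 (10.9 scaled reads). The strongest deletion-only interval was 6.0 kb upstream with 17.3 scaled reads. All 5 parent-only and both deletion-only intervals were also absent from the optimal list of the other group.

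Otx1 (ENSMUSG00000005917.15, chr11:21994764-22001615, reverse strand) had its single TSS open in both lists at different heights. The promoter interval at chr11:22001327-22002349 had 4915 reads (127 scaled) in the parent list and 551 reads (28.0 scaled) in the ΔSRR2–18 list, 4.51-fold lower (log2 −2.17). Of the 7531 pairs of like parent height, 7.02% were at or below this value. This pair was also lower by fold enrichment, at 15.2 and 5.48. By contrast, the neighbouring interval 4.04 kb upstream had 35.5 and 43.2 scaled reads (log2 0.28), with fold enrichments of 3.18 and 8.90, and the one 7.39 kb upstream had 19.2 and 17.0 scaled reads. The promoter and the upstream intervals thus stood in different proportions in the 2 lists.

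The parent-only intervals of Otx1 included the tallest among all 17 parent-only members. It lay 16.0 kb upstream at chr11:22017334-22017887, in an intron of Ehbp1, with 67.6 scaled reads and a −log10 p in the top 10.8% of the parent list. Its window, shown above, holds a SOX and a TAATTA word. A second parent-only interval 6.88 kb upstream, also in the Ehbp1 intron, had 55.0 scaled reads, and another 16.3 kb downstream had 6.62. The deletion-only intervals all lay downstream, 49.8, 27.8 and 4.83 kb from the TSS, with 28.3, 17.0 and 11.4 scaled reads, and the first pair of these were the 2 member intervals with an AP-1 word. None of the 6 overlapped the optimal list of the other group.

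Lhx2 (ENSMUSG00000000247.11, chr2:38339281-38369733, forward strand) kept 4 of its 5 parent intervals, and all 4 were weaker in ΔSRR2–18 NSPCs. At the first TSS the interval chr2:38338977-38339991 had 87.7 scaled reads in the parent list and 18.5 in the ΔSRR2–18 list, 4.73-fold lower (log2 −2.24). At the second TSS, chr2:38350417-38351796 had 131 and 43.0, 3.05-fold lower (log2 −1.61). Of the pairs of like parent height, 7.69% and 10.2% were at or below these values. The parent value at the second TSS was the highest of all 65 member intervals. The distal intervals 25.3 and 44.6 kb downstream had 39.2 and 15.5, and 78.2 and 9.77 scaled reads, log2 differences of −1.34 and −3.00. The interval 44.6 kb downstream, at chr2:38394620-38395774, thus had 8.01-fold fewer scaled reads at its strongest summit in the ΔSRR2–18 list. Of the 9407 pairs of like parent height, 2.92% were at or below this value, against 18.5% for the interval 25.3 kb downstream. The strongest summits of the pair 44.6 kb downstream lie 167 bp apart and mark different positions. Its interval was 1155 bp wide in the parent list and 547 bp in the ΔSRR2–18 list. The 8.01-fold value therefore does not compare the same bases.

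By fold enrichment the Lhx2 differences were smaller, log2 −0.59 and −0.47 at the promoters and −0.53 and −1.12 at the distal intervals. All 4 had the same direction by either measure. The parent-only interval 2.53 kb upstream of the second TSS had 35.6 scaled reads and overlapped the optimal ΔSRR2–18 list, and the deletion-only interval 18.2 kb downstream, in an Lhx2 exon, had 14.8.

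Emx2 (ENSMUSG00000043969.4, chr19:59458372-59465357, forward strand) showed a mixed pattern. Its promoter was covered by 2 intervals in the parent list, 0.859 kb upstream and 0.256 kb downstream of the TSS with 47.0 and 72.6 scaled reads, and by a single interval with 56.9 scaled reads in the ΔSRR2–18 list. The log2 differences were 0.28 and −0.35, but the upstream summits lie 1062 bp apart and mark different positions. The interval 1.11 kb downstream, in an Emx2 exon, had 58.9 and 21.6 scaled reads (log2 −1.45, fold enrichment 6.69 and 3.48), and 18.4% of pairs of like parent height were at or below it. Farther upstream, the interval at −25.9 kb in the antisense gene Emx2os had 16.3 and 16.7 scaled reads, and the one at −40.1 kb had 13.9 and 25.5 (log2 0.88), the highest log2 difference of the 16 pairs.

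The single parent-only interval of Emx2, at −34.5 kb (11.2 scaled reads), holds the OTX and TAATTA words shown above and overlapped the optimal ΔSRR2–18 list. The 3 deletion-only intervals, at −32.8, −3.99 and −39.3 kb, had 28.0, 20.5 and 8.95 scaled reads and were absent from the optimal parent list. Emx1 (ENSMUSG00000033726.8, chr6:85187438-85204358, forward strand) had few intervals. Its promoter interval had 24.8 scaled reads in the parent list and 17.7 in the ΔSRR2–18 list (log2 −0.49, fold enrichment 10.7 and 5.88). A parent-only interval 31.8 kb downstream, in an intron of the neighbouring Sfxn5, had 9.14, and a deletion-only one 2.93 kb downstream, in an Emx1 intron, had 13.5 and overlapped the optimal parent list.

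Six3 (ENSMUSG00000038805.10, chr17:85613608-85629302, forward strand) had equal numbers of intervals in both lists but in different places around the gene. A parent-only interval at chr17:85620570-85621937, with 17.6 scaled reads and its summit 44 bp upstream of a TSS, lay within 1 kb of 2 of the 3 Six3 start sites, and no ΔSRR2–18 summit lay within 1 kb of any. This interval did overlap the optimal ΔSRR2–18 list. The other parent-only intervals, 1.32, 17.0 and 17.9 kb downstream, had 11.5, 5.77 and 4.81 scaled reads. The deletion-only intervals lay 2.73, 17.2 and 4.57 kb upstream and 2.58 kb downstream of a TSS, with 28.1, 19.1, 6.51 and 8.29 scaled reads, the first of them overlapping the optimal parent list. Both distal pairs differed by less than 2-fold in scaled reads. The one 12.8 kb downstream had 11.4 and 11.9 scaled reads, and the one 24.9 kb downstream, at chr17:85645310-85646584, had 62.1 and 38.8 (log2 −0.68), near the median of −0.65 for pairs of like height, with fold enrichments of 22.1 and 22.6.

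Fezf2 (ENSMUSG00000021743.6, chr14:12342094-12348189, reverse strand) shared no interval between the lists. The parent list had 2 distal ones, 7.64 kb downstream with 18.0 scaled reads and 45.5 kb upstream in an intron of Cadps with 13.5, and both windows hold a SOX word. The ΔSRR2–18 list had 3 near the gene, with summits 0.871 kb downstream and 0.79 kb upstream of a TSS and 4.24 kb downstream, and scaled reads of 13.7, 7.32 and 14.6. Thus 2 of the 3 Fezf2 start sites had a summit within 1 kb in the ΔSRR2–18 list and 0 of 3 in the parent list. None of the 3 deletion-only intervals remained when the ΔSRR2–18 list was shortened by fold enrichment, and 2 remained when it was shortened by −log10 p. All 5 intervals were absent from the optimal list of the other group. At Hesx1 (ENSMUSG00000040726.10, chr14:26994416-27002329, forward strand) the nearest summit was 19588 bp from a TSS in the parent list and 12106 bp in the ΔSRR2–18 list, and these intervals were assigned to Il17rd and Appl1. No Hesx1 promoter was detected as accessible in either list.

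**Figure D3:**
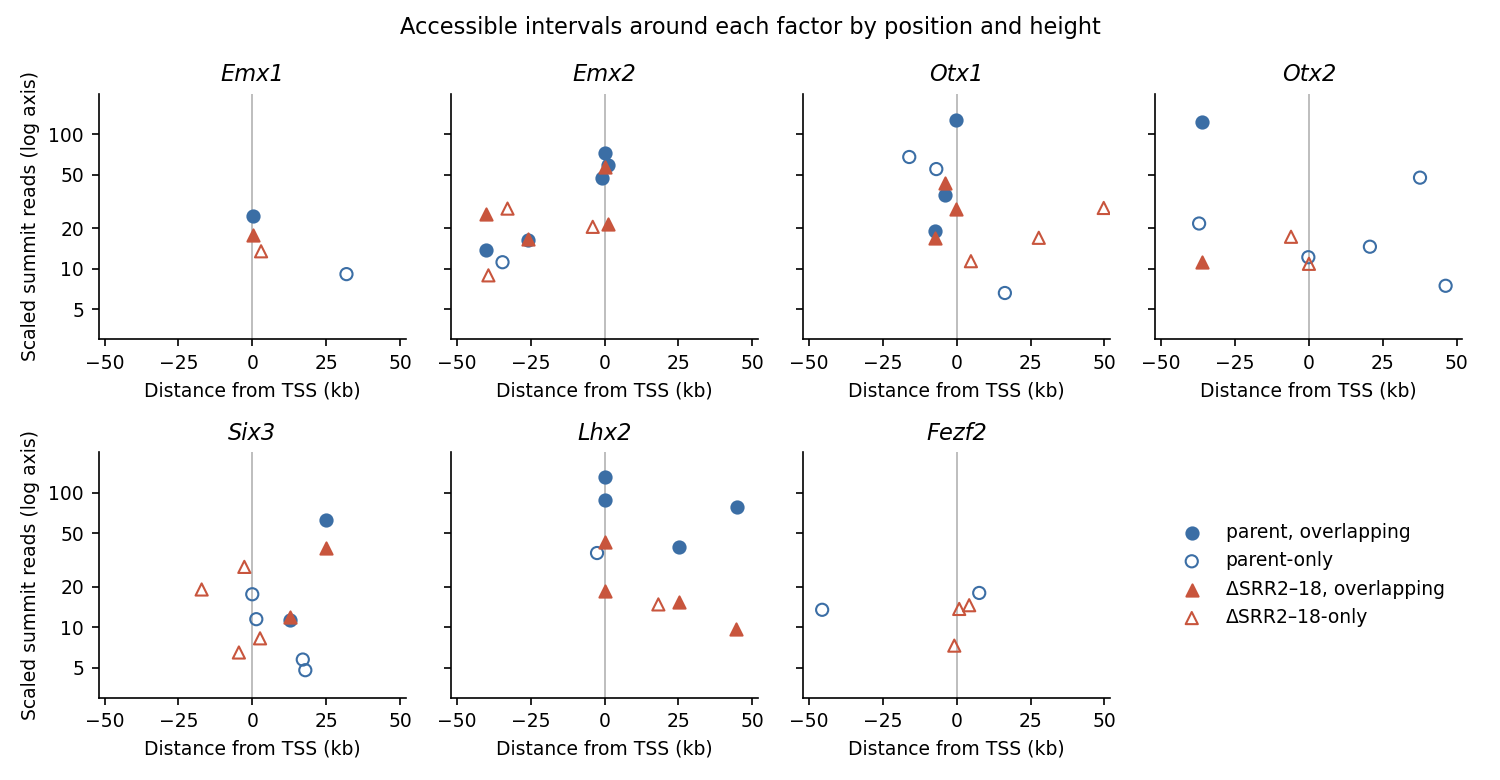
Position and height of the member intervals of the 7 genes that had any, with the distance of the strongest summit from the nearest TSS of the gene in kb (horizontal, negative upstream) and scaled summit reads (vertical, log axis). Blue circles are parent and red triangles ΔSRR2–18 intervals, filled where the interval overlaps the other list and open where it does not. The tallest symbols are parent intervals at Lhx2 (131), Otx1 (127) and Otx2 (122).

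At the full length of both lists, the intervals found in a single list differed between the groups in where they lay. Of the 17 deletion-only member intervals, 11 were within 10 kb of the TSS, beside 34.7% of all deletion-only intervals within 50 kb of a gene, and the median GC content of their windows was 61.2% (45.8% over all deletion-only intervals). Of the 17 parent-only member intervals, 6 were within 10 kb, beside 33.9% of all, with a median GC content of 48.3% (50.2% over all). The parent-only heights ran from 4.81 to 67.6 with a median of 13.5 scaled reads and the deletion-only heights from 6.51 to 28.3 with a median of 14.6, so the 2 sets overlapped, but the upper end was reached in the parent list alone.

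Motif words were few in the member windows. Of the 17 parent-only intervals, 3 held a SOX word (15.1% of all parent-only intervals), 2 held TAATTA (6.90%), 1 held the OTX word (4.72%), 1 the HOX-PBX word (2.16%) and 0 the AP-1 word (2.55%). Of the 17 deletion-only intervals, 2 held the AP-1 word (41.6% of all deletion-only intervals), 3 the HOX-PBX word (10.3%), 2 the OTX word (6.0%), and 0 held SOX (6.55%) or TAATTA (2.70%). The AP-1 share was thus lower than over all deletion-only intervals, and both matches were among the 6 members beyond 10 kb, where 43.8% of all deletion-only intervals held the word. Within 10 kb it was 0 of 11 members, beside 40.3% of all, and the median GC content there was 63.7% for the members and 48.3% for all. Whether GC content or position accounts for this was not tested. The number of members without the AP-1 word also depends on the list cutoff. Shortening the ΔSRR2–18 list by fold enrichment removed all deletion-only intervals of Emx1 and Fezf2, none with the word, and left 2 at Otx1. Among the overlapping intervals, 1 of 16 parent windows held TAATTA and the 15 ΔSRR2–18 windows held none of the 5 words. Words of different motifs did not overlap each other in any member window.

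The same values were taken for other forebrain factors and for midbrain–hindbrain boundary genes. For 16 other forebrain factors (Nr2f1, Rax, Lhx5, Six6 and others) the parent list had 79 intervals, 32 of them parent-only (40.5%), and the ΔSRR2–18 list had 105, with 56 deletion-only (53.3%). A single gene of this list, Tcf7l2, had 20 of the parent intervals, 15 of them parent-only. It also had 22 of the ΔSRR2–18 intervals, 16 of them deletion-only. The 47 pairs of the 16 factors had a median log2 difference of −0.06, with 9 pairs at least 2-fold lower and 11 at least 2-fold higher. For 10 midbrain and hindbrain boundary genes (En1, Pax2, Gbx2, Wnt1 and others), 16 of 44 parent intervals (36.4%) and 24 of 52 ΔSRR2–18 intervals (46.2%) were in 1 list alone, and the 28 pairs had a median of −0.24, with 7 lower and 5 higher. The member genes had 7 lower and 0 higher of 16. The difference between these lists was not tested, and they were not matched for parent height.

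Promoter pairs and distal pairs were then compared apart. At promoters 3 of 6 member pairs were at least 2-fold lower (median log2 −1.05), as were 5 of 10 pairs of the other forebrain factors (−0.89) and 6 of 8 of the boundary genes (−1.35), beside 13.3% of all promoter pairs (−0.46). The 6 member pairs come from Emx1, Emx2, Otx1 and Lhx2 and are not independent, and both Emx2 pairs match the same ΔSRR2–18 interval. Away from promoters 4 of 10 member pairs were lower (median −0.43), against 4 of 37 (0.20) and 1 of 20 (0.04) in the comparison lists and 17.2% of all distal pairs (0.00). Among all distal pairs within 50 kb of a TSS the share was 16.4% (−0.05). The 4 distal member pairs were 2 of Lhx2, 1 of Otx2 and 1 in the Emx2 exon, only 1.11 kb from the TSS. The Lhx2 pair 44.6 kb downstream has its strongest summits 167 bp apart. These 4 pairs began at parent scaled reads of 39.2 to 122. Among all pairs of like parent height, 20.4% to 31.2% were at least 2-fold lower. In the counts of single-list intervals, the widest differences toward ΔSRR2–18 were at Sp8 (1 parent-only and 6 deletion-only), Barhl2 (0 and 5), Dmrt3 and Foxd1 (0 and 4 each), Pax2 (0 and 5), Pax8 (1 and 5) and Lmx1a (0 and 3). Toward the parent they were at Rax (3 and 0), Gbx2 (5 and 2), Nr2f1 (5 and 3), Wnt1 (2 and 0), and En1 and En2 (1 and 0, and 2 and 1).

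**Figure D4:**
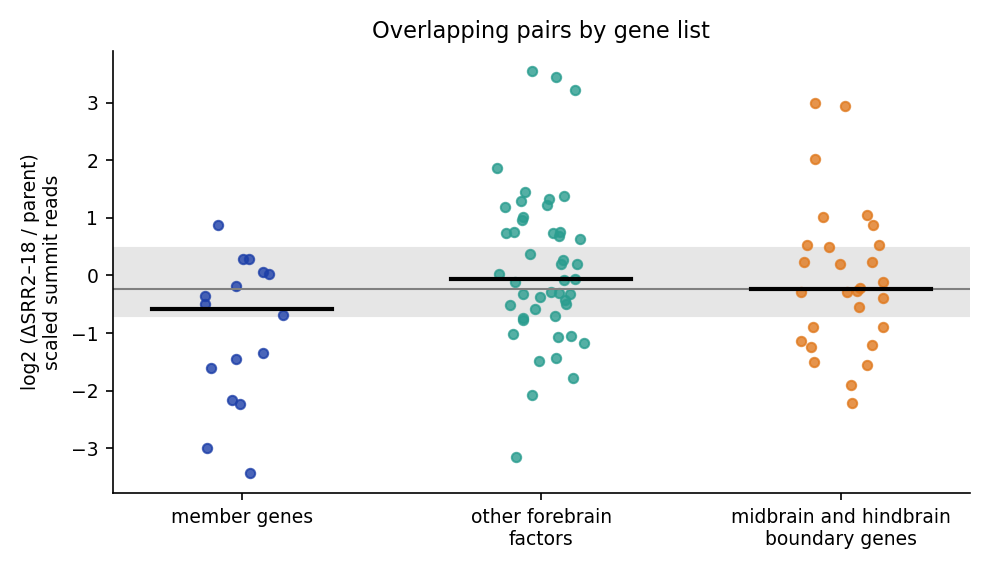
Log2 difference in scaled summit reads (ΔSRR2–18 over parent, vertical) for each overlapping pair of the 8 member genes (16 pairs), 16 other forebrain factors (47) and 10 midbrain and hindbrain boundary genes (28), spread sideways for legibility. Black bars are list medians (−0.58, −0.06 and −0.24), and the grey line and band are the median and quartiles of all 39500 pairs. The member pairs run from −3.43 to 0.88.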

How the data were processed

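ATAC-seq libraries were made from 3 cultures of each of 2 NSPC genotypes with, per the labels, 30000 cells per culture and reads of 50 cycles. The authors used the ENCODE ATAC-seq pipeline (mm10), in which MACS2 calls peaks and IDR (irreproducible discovery rate) keeps those that rank alike in the cultures of a genotype. The 4 deposited peak lists, 1 conservative and 1 optimal per genotype, hold for each peak the IDR score, the enrichment over local background as a fold, the −log10 p and the summit offset. The −log10 q was not used. The deposited scores, ratios and −log10 values were made on pooled reads. They carry no replicate error, and the lists do not separate the 129 and Cast alleles.

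The conservative lists were used, as in the study. Each distinct interval took the values of its summit with the highest fold enrichment. Solving the Poisson model of MACS2 for its 2 outputs gave the summit reads and local background of each peak, and this gave whole reads (within 0.05) for 99.9993% of parent peaks and 100.0000% of ΔSRR2–18 peaks. Reads are pileup heights and not independent molecules, so Wilson intervals cover counting error only. Depth per culture was not recovered. Genes were assigned with the GENCODE M21 basic annotation, over 21924 protein-coding symbols. An overlap of at least 1 bp joined intervals. Motif words were searched within 100 bp of the strongest summit in the RefSeq copy of GRCm38.

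The named intervals were all those at promoters and, by −log10 p, the strongest parent-only, deletion-only and distal overlapping one of each gene, and the rest are given for completeness. Comparison genes were named when among the 3 with the largest difference between parent-only and deletion-only counts in either direction, ties included. A few more were named as examples of their list, and Tcf7l2 for its number of intervals. One gene of the forebrain comparison list is not reported here and was left out of its counts. The members and lists were chosen with earlier results of these data known. Read recovery, overlap and gene assignment were tested on simulated data. Python 3.11.15, numpy 2.4.6 and pandas 2.3.3 were used.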

Additional observations from a re-analysis of the deposited data

How the results depend on the processing

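The alternatives were the optimal lists, an IDR score of at least 830, the deletion list shortened to the parent's length, a gene distance of 10 kb, protein-coding transcripts alone, merged intervals, stricter overlap, absence from both lists of the other group, and, for pairs, fold enrichment, centring and summits within 150 bp. Alternatives added after seeing the data were a minimum of 10 scaled reads, the summit with the most reads, leaving out promoter pairs, and differences relative to pairs of like parent height. In all, 44 recomputed summary values moved by less than their counting interval or, for counts and the median as an unlogged fold, by less than 1.5 times, and no median changed sign. The 3 exceptions were 20 deletion member intervals with the list shortened by fold enrichment, and 15 parent and 19 deletion intervals within 10 kb. The median log2 difference stayed below that of all pairs, from −0.64 in the optimal lists to −0.24 (0.00 over all pairs) with fold enrichment, and was −0.28 relative to pairs of like height and −0.35 with centring. Within 10 kb of the TSS it was −0.49, beside −0.23 for all pairs at any distance, which is not a like set. All promoter pairs had a median of −0.46. Of the 7 pairs at least 2-fold lower, 5 no longer reached 2-fold by fold enrichment, while the Otx1 promoter (−1.47) and the Lhx2 interval 44.6 kb downstream (−1.12) did. The strongest summits of this Lhx2 pair lie 167 bp apart, so its value does not compare the same bases. The parent-only share was 38.2% in the optimal lists (51.3% over all).

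No paired analysis was possible because each deposited list pools the 3 cultures of a genotype, and for the same reason no culture was left out in turn. With 1 clone and 1 pooled list per genotype, genotype, clone and library depth cannot be told apart. Member counts are small, and neighbouring intervals of a gene are not independent.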
